A study of Mus musculus with 13 samples.

Results

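The transcripts described here belong to 33 genes of sterol and fatty acid synthesis, with their regulators and exporters. The genes were taken from a list of names that was chosen with earlier results of these data known. All 33 were measured among the 19752 genes named by the arrays. Sets of 5 regulators of the SREBP transcription factors, 6 genes of the mevalonate and isoprenoid steps, 11 genes from squalene to cholesterol, 8 genes of fatty acid synthesis and modification, and 3 genes of sterol export and transport make up the list.

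The study sorted thymocytes from mice 2 weeks old, of mixed sex per the labels, and compared wild type (WT) mice with Sox4 conditional knockout (cKO) mice. One population was immature γδ T cells, sorted as TCRd+ Vg2+ HSAhi cells without CD4 or CD8 and called V2 below. The other was CD4+ CD8+ cells, called DP below, the αβ lineage stage that carries both coreceptors. The V2 arrays carry 2 styles of title, V2imm and immV2, and the labels do not say what separates them, so the title set was kept in view throughout. One V2imm pair is titled KO without the gene, and was read as Sox4 cKO from the series title. The labels used here do not name the Cre driver, the deleted part of Sox4 or the strain, and leave unsaid whether each replicate came from its own animal. The p-values therefore rest on how much these arrays scattered, some or all of which may be technical scatter.

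Of the 13 arrays, 11 entered the comparisons, 3 from V2 WT, 4 from V2 cKO and 2 from each DP genotype. The other 2 went against their labels. The array labelled DP cKO replicate 5 had a summed DP marker level (Cd4, Cd8a, Cd8b1, Rag1, Rag2) of 9.71 on the log2 scale, against 14.86 to 15.09 on the other DP arrays. For the array labelled V2 WT replicate 5 (immV2) that sum was 15.09, against 9.75 to 10.36 on the other V2 arrays. Both are shown apart, and results are also given with all 13 arrays as labelled. Array medians ran from 122.2 to 137.2 on the linear intensity scale. Sox4 itself was at log2 intensities of 8.64, 8.71 and 9.68 in V2 WT and at 8.07, 8.11, 8.23 and 9.60 in V2 cKO. In DP WT, Sox4 was at 8.55 and 9.37, and in DP cKO at 8.68 and 8.74. The array labelled V2 cKO replicate 5 (V2imm) held the 9.60, so Sox4 did not separate the genotypes. Nothing read here says whether its probes lie in the deleted part.

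Cells make cholesterol from acetyl units through the mevalonate pathway and fatty acids through acetyl-CoA carboxylase and fatty acid synthase. The SREBP factors, encoded by Srebf1 and Srebf2, switch on both sets of genes: Scap carries the SREBP precursors to the Golgi for cleavage when membrane sterol is low, and the Insig proteins hold them back in the endoplasmic reticulum when it is high. Oxysterols made when sterol is plentiful activate LXR receptors, which induce the exporters Abca1 and Abcg1 and also Srebf1. Lymphocytes draw on these pathways for new membrane when they grow and divide.

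Promoter windows from RefSeq (build GRCm38.p6, 250 bases before to 50 bases after a transcript start) matched 25 of the 33 genes with 33 windows. The 4 windows below are those of the genes that differed between V2 and DP, with capitals marking matches on either strand to 2 motifs, TCACNCCAC, a form of the sterol regulatory element, and CCAAT, the binding core of NF-Y. Windows are on the gene's own strand, 5′ to 3′, and each of these genes had 1 window. For Fasn and Abca1 the start used lies inside the outer bounds that RefSeq gives the gene.
Elovl6, chr3:129532136-129532435, plus strand: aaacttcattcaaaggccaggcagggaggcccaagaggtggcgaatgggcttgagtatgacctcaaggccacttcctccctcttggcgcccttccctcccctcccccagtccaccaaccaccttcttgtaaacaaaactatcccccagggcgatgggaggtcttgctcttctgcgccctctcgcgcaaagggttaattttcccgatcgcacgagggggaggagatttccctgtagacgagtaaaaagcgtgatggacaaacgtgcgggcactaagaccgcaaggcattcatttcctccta
Fasn, chr11:120824498-120824797, minus strand: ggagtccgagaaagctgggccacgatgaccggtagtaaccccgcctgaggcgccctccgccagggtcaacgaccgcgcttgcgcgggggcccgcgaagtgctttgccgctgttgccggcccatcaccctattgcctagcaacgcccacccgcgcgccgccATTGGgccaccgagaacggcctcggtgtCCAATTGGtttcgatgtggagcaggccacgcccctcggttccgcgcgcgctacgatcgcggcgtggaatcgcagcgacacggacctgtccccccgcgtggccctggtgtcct
Hmgcs1, chr13:119690101-119690400, plus strand: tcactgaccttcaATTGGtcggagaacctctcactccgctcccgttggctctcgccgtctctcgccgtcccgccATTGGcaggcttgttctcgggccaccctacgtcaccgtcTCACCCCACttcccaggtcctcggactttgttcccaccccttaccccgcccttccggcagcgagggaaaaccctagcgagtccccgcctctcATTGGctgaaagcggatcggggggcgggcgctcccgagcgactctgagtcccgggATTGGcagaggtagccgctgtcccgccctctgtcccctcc
Abca1, chr4:53159846-53160145, minus strand: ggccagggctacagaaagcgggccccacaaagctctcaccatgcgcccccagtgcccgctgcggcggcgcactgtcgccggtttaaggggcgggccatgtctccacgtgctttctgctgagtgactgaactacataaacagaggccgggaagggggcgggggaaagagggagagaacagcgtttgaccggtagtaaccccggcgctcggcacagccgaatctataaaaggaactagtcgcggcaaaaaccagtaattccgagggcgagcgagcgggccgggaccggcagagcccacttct

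CCAAT occurred in the windows of 20 of the 25 member genes (80.0%), against 41.1% of the 27025 genes with a window. Counted by window, the shares were 63.6% of 33 and 37.4% of 32851. The background holds every gene with a window, whatever its level on the arrays. TCACNCCAC occurred in 1 of the 25 (4.0%), against 1.44% of all genes. That gene was Hmgcs1, where the letters TCACCCCAC began 137 bases before the start, beside 4 CCAAT matches. Fasn held 3 CCAAT matches, a pair of which overlap, and the Elovl6 and Abca1 windows held neither motif. A match is a string of letters and not a measured binding site.

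Between the populations, 2 of the 33 genes stood out in both genotypes. Elovl6, the elongase that lengthens saturated and monounsaturated long-chain fatty acids, was higher in V2, and Abca1, the exporter that passes cholesterol to apolipoprotein A-I, was lower in V2. In limma with Benjamini-Hochberg adjustment over all genes, these were the only members below an adjusted p of 0.05 in V2 WT against DP WT and also in V2 cKO against DP cKO. That is 6.06% of the members in each comparison, against 4.87% and 5.45% of all genes, or 7.48% and 7.89% with genes below a mean log2 of 6 left out. The share of changed members was thus near the background. In WT 20 members were higher in V2 and 13 lower with a median log2 difference of 0.05, against -0.02 over all genes. In cKO 18 were higher and 15 lower, with a median of 0.09 against -0.01 over all genes.

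Elovl6 was at log2 intensities of 9.18, 9.37 and 9.46 in V2 WT and at 7.71 and 7.75 in DP WT. In V2 cKO it was at 8.97, 9.55, 9.60 and 9.85, and in DP cKO at 7.61 and 8.39. Every V2 array lay above every DP array, and both V2imm and immV2 arrays were high. The difference was 1.66 (SE 0.25, a 3.17-fold level, limma adjusted p = 0.0012) in WT and 1.49 (SE 0.23, 2.81-fold, adjusted p = 0.0016) in cKO. The array labelled DP cKO replicate 5 read 9.46, at the V2 level, and the array labelled V2 WT replicate 5 (immV2) read 8.34, at the upper end of the DP arrays. With all 13 arrays as labelled the differences were 1.35 (adjusted p = 0.452) and 1.005 (adjusted p = 0.513). Without DP cKO replicate 3 the cKO difference was 1.10 (adjusted p = 0.058), so that call rests on the lower of the DP cKO arrays. Within the V2imm arrays alone it was 1.54 in WT and 1.26 in cKO, and within immV2 alone 1.73 and 1.72, below an adjusted p of 0.05 each time. The immV2 WT group is then 1 array, assumed to vary like the others.

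Abca1 ran the other way. It was at 8.67 and 8.68 in DP WT and at 8.13 and 8.36 in DP cKO. In V2 WT it was at 6.90, 6.96 and 8.03, and in V2 cKO at 6.97, 7.33, 7.69 and 7.85. No V2 array reached a DP array, but the V2 arrays fell into their title sets: V2imm between 6.90 and 7.33, immV2 between 7.69 and 8.03. The difference was -1.25 (SE 0.18, 2.37-fold lower in V2, limma adjusted p = 0.00095) in WT and -0.79 (SE 0.17, 1.72-fold lower, adjusted p = 0.015) in cKO. Within V2imm it was -1.75 in WT and -1.10 in cKO, both called. Within immV2 it was -0.65 (adjusted p = 0.29) and -0.48 (adjusted p = 0.305). With all 13 arrays it was -1.15 (adjusted p = 0.211) and -0.50 (adjusted p = 0.566). The cKO call was also lost without the title-set covariate (-0.79, SE 0.31, adjusted p = 0.305), and without DP cKO replicate 3 (-0.67, adjusted p = 0.237), DP cKO replicate 4 (-0.90, adjusted p = 0.0653) or V2 cKO replicate 4 (immV2) (-0.71, adjusted p = 0.0562).

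**Figure D1:**
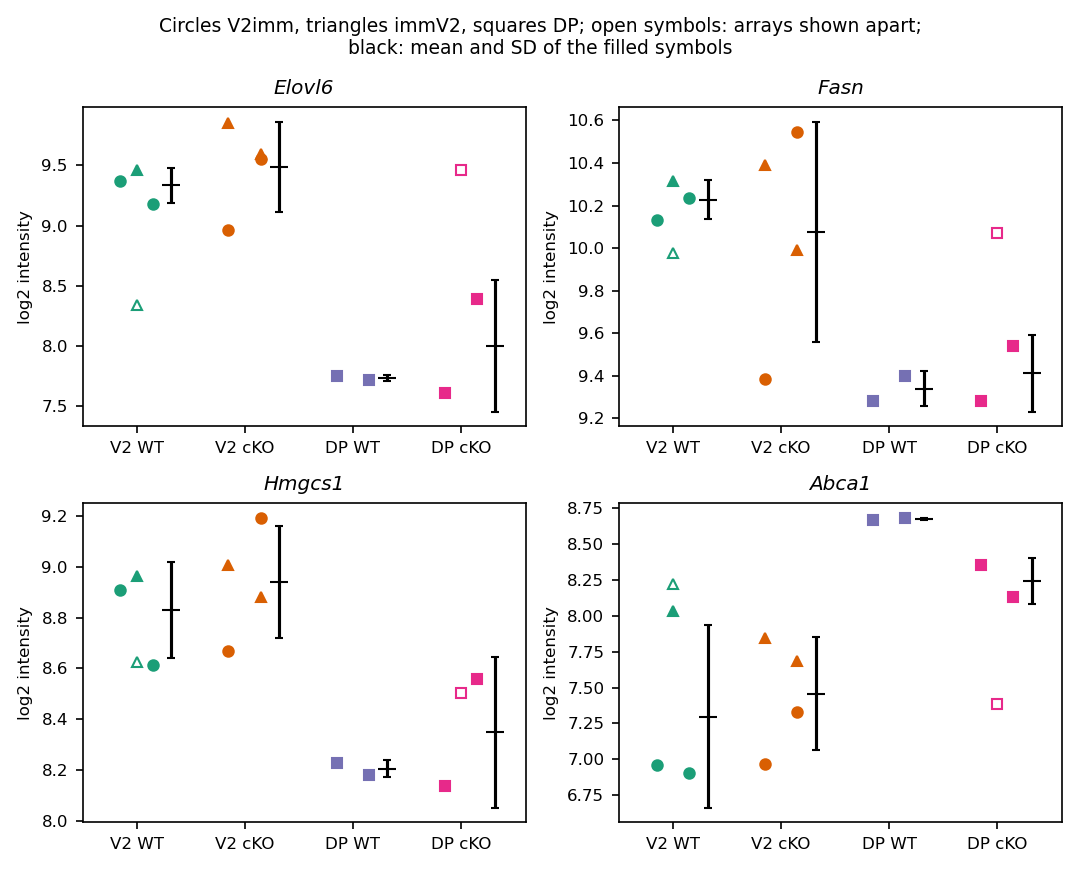
Log2 intensity of Elovl6, Fasn, Hmgcs1 and Abca1 on each array, by population and genotype (circles V2imm, triangles immV2, squares DP; open symbols are the 2 arrays shown apart; black bars are the mean and SD of the filled symbols). Elovl6 in V2 lies between 8.97 and 9.85, above the DP range of 7.61 to 8.39, while Abca1 in V2 lies between 6.90 and 8.03, below the DP range of 8.13 to 8.68.

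A comparison of V2 with DP averaged over the genotypes was added after the data were seen, and uses the same arrays as the comparisons above. It called 4 of 33 members (12.1%), against 10.7% of all genes. Elovl6 differed by 1.58 (SE 0.17, adjusted p = 3.7e-05) and Abca1 by -1.02 (SE 0.12, adjusted p = 0.0001). The additional members were Fasn, the fatty acid synthase, and Hmgcs1, the synthase that makes the HMG-CoA from which mevalonate is formed. Across the members, the V2 arrays were all above or all below the DP arrays for Hmgcs1, Elovl6, Insig2 and Abca1, or 4 of 33, against 8.28% of all genes.

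Fasn was at 10.13, 10.24 and 10.31 in V2 WT and at 9.38, 9.99, 10.39 and 10.54 in V2 cKO. In DP WT it was at 9.28 and 9.40, and in DP cKO at 9.28 and 9.54. The V2 WT arrays were all above the DP arrays, while V2 cKO replicate 4 (V2imm) fell inside the DP range. The mean difference was 0.79 (SE 0.20, 1.73-fold, limma adjusted p = 0.019), made up of 0.92 in WT (adjusted p = 0.10) and 0.67 in cKO (adjusted p = 0.25). Hmgcs1 was at 8.61, 8.91 and 8.97 in V2 WT and at 8.67, 8.88, 9.01 and 9.19 in V2 cKO. In DP WT it was at 8.18 and 8.23, and in DP cKO at 8.14 and 8.56. The mean difference was 0.62 (SE 0.14, 1.53-fold, limma adjusted p = 0.014), with 0.64 in WT and 0.59 in cKO, each at an adjusted p of 0.13. With all 13 arrays the mean difference was 0.64 for Fasn (adjusted p = 0.152) and 0.56 for Hmgcs1 (adjusted p = 0.086). Of 25 alternative settings, Fasn was called in 17 and Hmgcs1 in 20.

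By role, 2 of the 8 fatty acid genes (Elovl6 and Fasn) were called higher in V2 in the average over genotypes. In that average 10.7% of all genes were called, or 15.3% with genes below a mean log2 of 6 left out. Of the other 6 fatty acid genes, 5 had differences of 0 or above that did not pass, and the median of the 8 was 0.35. Fads2, a front-end desaturase of polyunsaturated fatty acids, differed by 0.67 (SE 0.23, adjusted p = 0.0922). That value joins 1.21 with the V2imm arrays alone (adjusted p = 0.0116) and 0.16 with the immV2 arrays alone (adjusted p = 0.826). Acaca, the acetyl-CoA carboxylase that makes malonyl-CoA, differed by 0.51 (SE 0.18, adjusted p = 0.106). Acly, which splits citrate to give cytosolic acetyl-CoA, differed by 0.00 (SE 0.16), and Scd2, a stearoyl-CoA desaturase, by 0.19 (SE 0.17). Fads1, the partner desaturase of Fads2, differed by 0.16 (SE 0.19), with 0.49 in V2imm and -0.17 in immV2. Scd1, another stearoyl-CoA desaturase, lay below the array's lower quartile on 12 of the 13 arrays and was the 1 gene of the set with a negative difference, -0.16 (SE 0.13).

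In the mevalonate and isoprenoid steps 4 of 6 genes were higher in V2 in this average, with 1 called (Hmgcs1) and a median of 0.16. Mvk, mevalonate kinase, differed by 0.12 (SE 0.12), and Pmvk, the kinase that follows it, by -0.06 (SE 0.13). Mvd, the decarboxylase that forms isopentenyl diphosphate, differed by 0.29 (SE 0.14, adjusted p = 0.252). Idi1, the isomerase acting on that product, differed by 0.20 (SE 0.20) and Fdps, the farnesyl diphosphate synthase, by -0.12 (SE 0.15).

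From squalene to cholesterol 8 of 11 genes were higher and 3 lower, none called. An unadjusted p below 0.05 was found for 2 of the 11 and for 4061 of all 19752 genes. Lss, which closes the ring system to form lanosterol, differed by 0.40 (SE 0.16, adjusted p = 0.157). Sqle, squalene epoxidase, and Fdft1, squalene synthase, each differed by 0.30 (SE 0.13 and 0.15). Cyp51, the lanosterol demethylase, differed by 0.17 (SE 0.15), Msmo1, the sterol methyl oxidase, by 0.14 (SE 0.13) and Hsd17b7, a sterol ketoreductase, by 0.13 (SE 0.14). The other 2 genes above 0 were Nsdhl, a sterol dehydrogenase, at 0.07 (SE 0.14) and Tm7sf2, a sterol reductase, at 0.01 (SE 0.11). On the lower side were Dhcr7, the last reductase of the pathway, at -0.34 (SE 0.17, adjusted p = 0.29), Sc5d, a sterol desaturase, at -0.17 (SE 0.15), and Ebp, a sterol isomerase, at -0.12 (SE 0.18).

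None of the 5 SREBP regulators was called between V2 and DP. In the same average 4 of the 5 differences were below 0 and the median was -0.38, and those 4 were larger in size with the V2imm arrays than with the immV2 arrays. Insig2 differed by -0.46 (SE 0.15, adjusted p = 0.0857), Srebf1 by -0.39 (SE 0.16, adjusted p = 0.174), Insig1 by -0.38 (SE 0.19, adjusted p = 0.294) and Srebf2 by -0.31 (SE 0.20, adjusted p = 0.458). Scap differed by 0.19 (SE 0.18). Insig2 was the 1 regulator whose populations did not overlap: V2 ran from 7.69 to 8.43 and DP from 8.54 to 8.69. Srebf1 ran from 7.92 to 8.99 in V2 and from 8.75 to 9.13 in DP, and those ranges overlap. With the V2imm arrays alone the average was -0.70 for Srebf1 (adjusted p = 0.0373), -0.58 for Srebf2 (adjusted p = 0.161), -0.62 for Insig1 (adjusted p = 0.12) and -0.55 for Insig2 (adjusted p = 0.0874). With the immV2 arrays alone it was -0.08, -0.09, -0.13 and -0.36 for the same genes, none called.

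Of the transport genes besides Abca1, Abcg1, an exporter that loads cholesterol onto high-density lipoprotein, differed by -0.54 (SE 0.26, adjusted p = 0.261). With the V2imm arrays alone the value was -0.98 (adjusted p = 0.0612), and with the immV2 arrays alone -0.09 (adjusted p = 0.92). In WT the immV2 value was above 0, at 0.11. Its V2 arrays ran from 8.32 to 10.21 and its DP arrays from 9.87 to 10.59. Stard4, a carrier of cholesterol inside the cell, differed by 0.19 (SE 0.16).

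**Figure D2:**
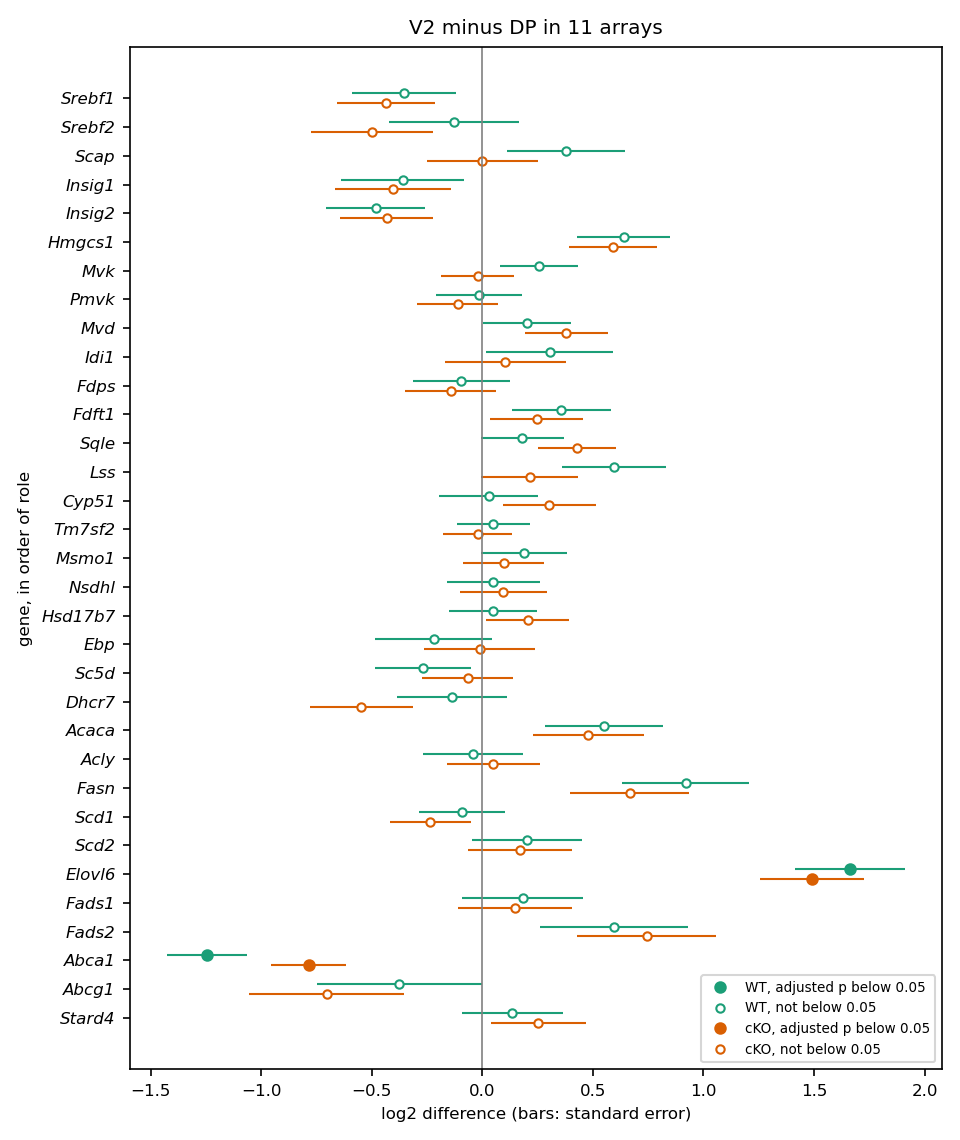
Log2 difference of V2 minus DP for each of the 33 genes in WT (green) and cKO (orange), with bars of 1 standard error and filled points for an adjusted p below 0.05. Filled points are Elovl6 (1.66 and 1.49) and Abca1 (-1.25 and -0.79), and the other 31 genes are open in both genotypes.

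Markers of other cells moved with this comparison. Skeletal muscle markers (6 of 6 measured) had a summed log2 level of 10.56 to 11.31 in DP cKO, 9.79 to 10.35 in DP WT and 9.56 to 9.996 in V2, and all 6 were called lower in V2 in the average. Macrophage and dendritic markers (8 of 8) summed to 10.10 to 11.80 in V2imm, 9.19 to 9.68 in immV2 and 9.25 to 9.52 in DP, with Adgre1 below the lower quartile on all 11 arrays and 1 of 8 called higher in V2. Of 5 thymic epithelium markers 1 was called higher in V2. Adipocyte markers (5 of 6 measured) summed to 8.40 to 9.09 with none called and Fabp4 below the lower quartile on all 11 arrays, and the 3 measured B cell markers were below it on all 11. Proliferation markers (7 of 8) summed to 13.68 to 14.43 with none called. Xist, a transcript of the inactive X chromosome, was between 11.82 and 12.42 on 4 of the 11 arrays and between 5.36 and 6.08 on the other 7. The 4 were DP WT replicate 5 and, of V2imm, V2 WT replicate 5, V2 cKO replicate 4 and V2 cKO replicate 5. The part of these differences in the results was not tested, except that with Xist as a covariate Elovl6 kept its call in both genotypes and Abca1 in WT (in cKO its adjusted p was 0.054). Where a whole population is compared, fewer cells of a type and less RNA per cell cannot be told apart.

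**Figure D3:**
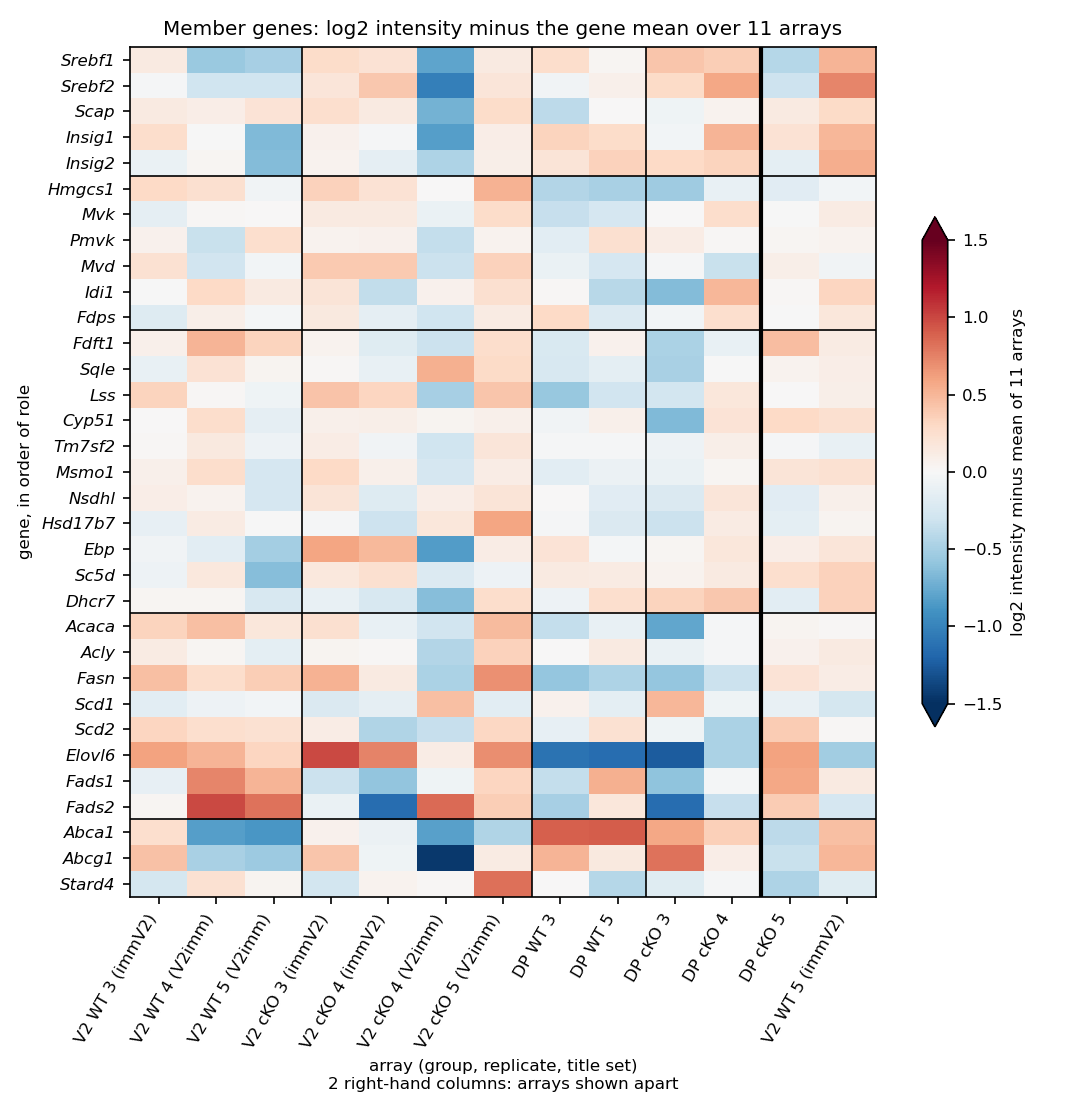
Log2 intensity of each of the 33 genes on each array, minus the gene's mean over the 11 arrays compared (red above, blue below; colours end at 1.5). Rows follow the genes' roles, and the 2 arrays shown apart stand on the right. The column of V2 cKO replicate 4 (V2imm) is the lowest of 11 for 12 of the 33 genes (36.4%, against 16.8% of all genes).

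The Sox4 comparison within V2 called no gene of the list. Of the 33 members 18 were higher and 15 lower in V2 cKO than in V2 WT, from -0.43 to 0.23 with a median of 0.01, and 0 had an unadjusted p below 0.05. Over all 19752 genes limma also called 0 (0%), and 757 had an unadjusted p below 0.05. The largest differences were in the desaturases: Fads1 was at 9.53, 10.16 and 10.38 in V2 WT and at 9.06, 9.33, 9.58 and 9.97 in V2 cKO, a difference of -0.43 (SE 0.23). Fads2 also differed by -0.43 (SE 0.28), and Scd2 by -0.35 (SE 0.21) and Fdft1 by -0.33 (SE 0.19). Elovl6 differed by 0.10 (SE 0.21) and Abca1 by 0.03 (SE 0.15). In none of the 33 were all V2 cKO arrays on one side of the V2 WT arrays, against 3.45% of all genes. Without the array labelled V2 cKO replicate 5 (V2imm), which read high for Sox4, 0 members and 44 of all genes were called.

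In DP cells no member was called between cKO and WT either, against 5 of all genes (0.0253%). Differences ran from -0.58 to 0.43, with 21 higher and 12 lower in cKO. An unadjusted p below 0.05 was found for 2 of the 33 members and for 535 of all 19752 genes. Mvk was at 8.01 and 8.10 in DP WT and at 8.36 and 8.61 in DP cKO, a difference of 0.43 (SE 0.19). Abca1, at 8.67 and 8.68 in DP WT and at 8.13 and 8.36 in DP cKO, differed by -0.43 (SE 0.20). Neither passed after adjustment. Fads2 had the lowest value, -0.58 (SE 0.36), with arrays at 8.97 and 9.64 in WT and at 8.33 and 9.12 in cKO that overlap. The genotypes did not overlap in DP for 7 of 33 genes (Srebf1, Srebf2, Mvk, Lss and Dhcr7 higher in cKO, Acly and Abca1 lower), against 29.8% of all genes with this number of arrays. The skeletal muscle markers were higher in DP cKO in 6 of 6, none called, and their part was not tested.

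Whether the knockout label acted unequally in the populations was tested as an interaction. None of the members was called, 0 had an unadjusted p below 0.05, and limma called 0 of all genes (0%), with 372 at an unadjusted p below 0.05. Interaction values ran from -0.41 for Dhcr7 (SE 0.34) to 0.46 for Abca1 (SE 0.25). For Elovl6 the value was -0.17 (SE 0.34), so the difference of V2 from DP in WT and that in cKO were not told apart.

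**Figure D4:**
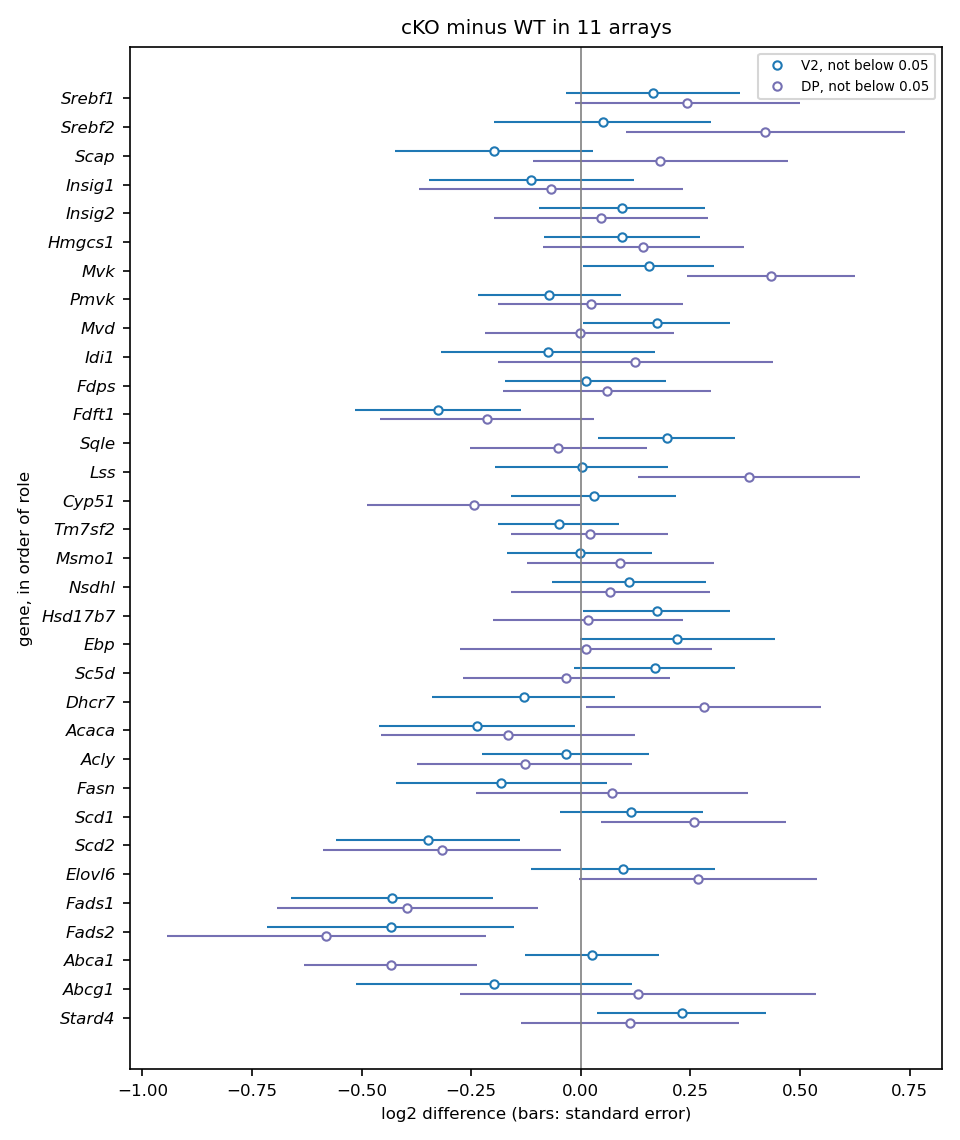
Log2 difference of cKO minus WT for each of the 33 genes in V2 (blue) and DP (purple), with bars of 1 standard error. All points are open, since no gene had an adjusted p below 0.05, and they lie between -0.58 and 0.43.

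Within V2, the title sets were also compared. This comparison was added after the data were seen, and the labels do not explain the titles. One member (3.03%) was called, against 2.5% of all genes. An unadjusted p below 0.05 was found for 11 of the 33 members and for 3397 of all 19752 genes. Abca1 was higher in immV2 by 0.81 (SE 0.15, limma adjusted p = 0.0134). That call was lost without V2 WT replicate 3 (immV2) (0.62, adjusted p = 0.169) or V2 cKO replicate 3 (immV2) (0.82, adjusted p = 0.0618). Abcg1 differed by 0.88 (SE 0.31, adjusted p = 0.188) and Srebf1 by 0.61 (SE 0.20, adjusted p = 0.148), and all 5 SREBP regulators lay above 0, none called. Fads2 was lower in immV2, at 8.33, 9.37 and 9.50 against 9.84, 10.28, 10.32 and 10.46 in V2imm, a difference of -1.09 (SE 0.28, adjusted p = 0.0657). The sets did not overlap for 5 of 33 genes (Abca1 higher in immV2, Sqle, Hsd17b7, Fads1 and Fads2 lower), against 14.9% of all genes. The macrophage and dendritic markers moved with the title sets, with 4 of 8 called lower in immV2, and their part was not tested. Xist was between 5.36 and 6.08 on all immV2 arrays compared. In V2imm it was at 5.55 on V2 WT replicate 4 and between 11.82 and 11.96 on the others. The part of Xist in the title-set comparison was not tested either. Without V2 cKO replicate 5 (V2imm), 9 members were called: Abca1, Abcg1, Ebp, Insig1, Lss, Mvd, Srebf1 and Srebf2 higher in immV2 and Fads2 lower, beside 22.1% of all genes.

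Single arrays weighed on the members. V2 cKO replicate 4 (V2imm) was the lowest of 11 arrays for 12 of 33 members (36.4%), against 16.8% of all genes. On it 26 of 33 lay below its group's mean with a median deviation of -0.31, against 0.09 over all genes. Over all probe sets this array had the lowest upper quartile of the 13 arrays (332.7, others up to 426.2). Its log2 lower quartile was the highest (6.09, others down to 5.72). The upper end of its intensities was thus lower and the lower end higher than on the other arrays. The part of this in the members' values was not tested. DP cKO replicate 3 was the lowest for 10 of 33 (30.3%), against 6.34% of all genes. V2 cKO replicate 5 (V2imm) was the highest for 9 of 33. The matching share over all genes was not counted, and this array had the highest upper quartile of intensity (426.2). The median SD over the 11 arrays was 0.31 for the members, from 0.13 for Tm7sf2 to 0.84 for Elovl6, against 0.21 over all genes. Of the 19752 genes 14464 reached a mean log2 of 6, as did all members but Scd1. Genes of like brightness were not compared, so the SDs do not set the members apart.

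Some members rose and fell together across the 11 arrays, which is given as a description, since the arrays share populations and title sets. The median correlation over the 528 pairs was 0.23, and 0.40 after each group's mean was removed. Without V2 cKO replicate 4 (V2imm), and with group means kept, it was 0.20. Pairs of other genes were not correlated, so these medians do not set the members apart. Srebf1 and Abcg1, both known LXR targets, correlated at 0.91 over the 11 arrays and at 0.95 within groups, and Srebf1 with Abca1 at 0.77 and 0.86. Srebf1 also correlated with Srebf2 (0.89 and 0.88), Ebp (0.84 and 0.89) and Insig1 (0.78 and 0.79). Without V2 cKO replicate 4 (V2imm) these were 0.82, 0.71 and 0.62 over the remaining arrays, beside 0.85 for Abcg1 and 0.73 for Abca1. Whether the LXR targets stand apart was not tested. The V2 groups hold both title sets, so differences between the sets remain in the values within groups. Hmgcs1 and Elovl6 correlated at 0.95 and at 0.81 within groups, and Acaca and Fasn at 0.87 and 0.77. Fads1 and Fads2, neighbouring desaturase genes, correlated at 0.83 and 0.82. Elovl6 and Abca1 correlated at -0.69 over the 11 arrays and at 0.47 within groups.

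Other genes of the same pathways were read from a list of 38, of which 31 were measured: SREBP cleavage, LXR response, sterol handling and acyl chain synthesis. In V2 WT against DP WT 4 were called higher and 1 lower, or 16.1% against 4.87% of all genes. In V2 cKO against DP cKO 3 were called higher and 2 lower, again 16.1%, against 5.45% of all genes. In the average over genotypes 5 were called higher and 5 lower (32.3%, against 10.7%). With dim genes left out, the all-gene shares were 7.48% in WT, 7.89% in cKO and 15.3% in the average. The 3 called higher in both genotypes were Elovl5, Hacd3 and Hsd17b12.

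Elovl5, an elongase of polyunsaturated fatty acids, was at 11.66, 11.66 and 11.70 in V2 WT and at 10.39 and 10.50 in DP WT, a difference of 1.24 (SE 0.20, limma adjusted p = 0.0019). In V2 cKO it ran from 10.96 to 11.50 and in DP cKO from 10.53 to 10.66, a difference of 0.70 (SE 0.19, adjusted p = 0.048). Hacd3, a dehydratase of the elongation cycle, differed by 1.02 (SE 0.22, adjusted p = 0.015) in WT and 0.77 (SE 0.20, adjusted p = 0.047) in cKO. Hsd17b12, the ketoreductase of that cycle, differed by 0.79 (SE 0.20, adjusted p = 0.034) in WT and 0.76 (SE 0.18, adjusted p = 0.029) in cKO. Of 25 alternative settings, Elovl5 was called in 24 in WT and 10 in cKO (0.36 to 0.82). Hacd3 was called in 18 in WT and 8 in cKO (0.35 to 0.91), and Hsd17b12 in 13 in WT and 19 in cKO. With all 13 arrays as labelled the cKO differences were 0.36 for Elovl5 (adjusted p = 0.81), 0.35 for Hacd3 (adjusted p = 0.834) and 0.54 for Hsd17b12 (adjusted p = 0.538). The reductase that ends the cycle, Tecr, and the elongase Elovl1 were looked at after their values were seen: in the average over genotypes Tecr differed by 0.31 (adjusted p = 0.20) and Elovl1 by 0.63 (adjusted p = 0.068).

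Slc25a1, the mitochondrial citrate carrier that feeds cytosolic acetyl-CoA, was higher in V2 WT by 0.91 (SE 0.21, limma adjusted p = 0.022). Over 25 alternative settings its cKO difference ran from 0.46 to 0.84 and was called in 4. Cyb5a, the cytochrome b5 that passes electrons to desaturases and sterol oxidases, was lower in V2. It was at 9.53, 10.26 and 10.42 in V2 WT against 11.85 and 12.24 in DP WT, a difference of -1.94 (SE 0.26, limma adjusted p = 0.00043). In cKO its difference was -1.70 (SE 0.24, adjusted p = 0.00075). Lipa, the lysosomal lipase that frees cholesterol from its esters, was lower in V2 cKO than in DP cKO. The difference was -1.22 (SE 0.25, limma adjusted p = 0.0093). Over the 25 settings the WT difference of Lipa ran from -0.88 to -0.20 and was called in 0. In the average over genotypes Slc25a1 was called in 24 of these settings and Lipa in 23. With all 13 arrays as labelled no gene of this list was called in V2 WT against DP WT or in the average. In WT the count was 2 without DP WT replicate 3, DP WT replicate 5 or V2 WT replicate 4 (V2imm). No gene of this list was called between the genotypes in V2 or DP or in the interaction. There 2, 0 and 0 had an unadjusted p below 0.05, against 757, 535 and 372 of all 19752 genes.

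**Figure D5:**
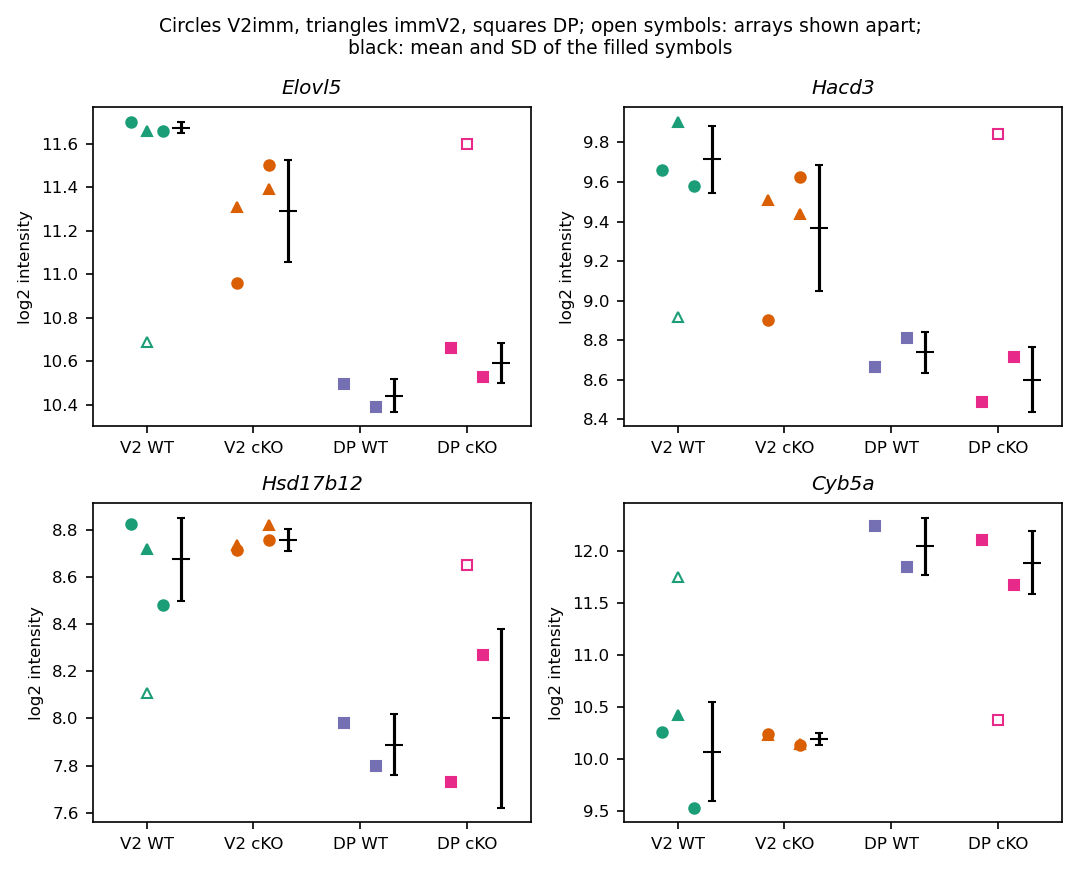
Log2 intensity of Elovl5, Hacd3, Hsd17b12 and Cyb5a on each array, with symbols as in the plot of Elovl6, Fasn, Hmgcs1 and Abca1. The first 3 are higher in V2 than in DP in both genotypes and Cyb5a is lower; the array labelled DP cKO replicate 5 (open square) reads near the V2 arrays in each.

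Fatty acid oxidation, the opposing pathway, was read from 18 genes, 17 of them measured. None was called in WT or in cKO, where 4 and 3 had an unadjusted p below 0.05, against 2773 and 2815 of all 19752 genes. In the average over genotypes 3 of 17 (17.6%) were called, against 10.7% of all genes. That all-gene share was 15.3% with genes below a mean log2 of 6 left out. Cpt1a, which controls fatty acid entry into mitochondria, was higher in V2 by 1.64 (SE 0.39, limma adjusted p = 0.014). Acaa2, a thiolase, was lower in V2 with a difference of -0.78 (SE 0.17, adjusted p = 0.0082), and Acadm, the medium-chain acyl-CoA dehydrogenase, was lower with a difference of -0.65 (SE 0.19, adjusted p = 0.041). Of 25 alternative settings, Cpt1a was called in 20, Acaa2 in 22 and Acadm in 11. None was called with all 13 arrays (adjusted p = 0.155, 0.447 and 0.377). Between the title sets Acadl, the long-chain dehydrogenase, was higher in immV2 by 1.70 (SE 0.24, adjusted p = 0.0018). There Acss2, the acetyl-CoA synthetase, was higher by 1.47 (SE 0.21, adjusted p = 0.0021), Npc1, the lysosomal cholesterol exporter, by 1.10 (SE 0.24, adjusted p = 0.028) and Lpin1, a phosphatidate phosphatase, by 0.75 (SE 0.18, adjusted p = 0.049).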

How the data were processed

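Total RNA of sorted thymocytes was hybridized to Affymetrix arrays. The authors deposited linear intensity values per probe set, for which the submitters' processing notes name Affymetrix Power Tools and RMA; the depth of an array has no count, so the number of arrays limits precision. Of 24922 probe sets 21425 carry 1 gene symbol, 1399 several and 2098 none listed; those with several or none were left out, and 21347 matched RefSeq by gene ID. The brightest probe set stood for each gene (921 genes had more than 1), including Idi1, Fdft1 and Acaca among the members.

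Values were taken to log2 and fitted in limma 3.58.1 (R 4.3.3) with 4 group means and the V2 title set, without a filter on dim genes. eBayes used an intensity trend, tests were two-sided, p-values were Benjamini-Hochberg adjusted over 19752 genes, and a gene was called below 0.05. The fit was also run on simulated data with independent noise and no title-set effect or outlying array, so that run does not cover these. Every member is named, and of the related lists up to 4 called genes with the smallest p in a comparison. The members and lists were chosen with earlier results of these data known. Alternatives changed the arrays, scaling, log offset (32), dim-gene filter (log2 of 6), probe set rule, moderation, covariates, weights and pairing. Left out of each comparison were the 2 arrays that went against their labels.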

Additional observations from a re-analysis of the deposited data

Results flagged for a closer look

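Groups of 4 arrays were searched gene by gene for an array far from the rest, relative to the range of its group (Dixon's 95% critical value). Of 66 such groups 9 were picked out, and chance picks out about 1 in 20. V2 cKO replicate 4 (V2imm) accounted for 8 of the 9. Over all probe sets this array had the lowest upper quartile (332.7) and the highest log2 lower quartile (6.09) of the 13 arrays, whose part was not tested. It was lowest in its group for the regulators Srebf1 (log2 intensity 7.92, next array 8.84), Srebf2 (8.96, next 10.15), Scap (8.83, next 9.68) and Insig1 (7.66, next 8.47). It was also lowest for Pmvk (6.35, next 6.76), Mvd (7.33, next 7.98) and Lss (6.92, next 7.73), and highest for the dim gene Scd1 (5.82, next 5.24). The ninth was Nsdhl in V2 WT as labelled, where V2 WT replicate 5 (V2imm) read 8.57 and the next array 8.88.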

How the results depend on the processing

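No call of a gene reversed in any of the alternatives run. For the single genes, 4961 values kept their direction and side of the threshold, 41 newly passed it, 28 no longer did and 211 without a call moved. Of the 33 members, 2 were called in V2 WT against DP WT, 2 in V2 cKO against DP cKO and 4 in the average over genotypes. With all 13 arrays as labelled these counts were 0, 0 and 1, with array weights 5, 5 and 8, and with the immV2 arrays alone 1, 1 and 2. In cKO the count was 1 without the title-set covariate and 1 with Xist as a covariate. Leaving out 1 array at a time gave 2 to 5 in WT, 0 to 5 in cKO, 2 to 8 in the average and 0 to 9 between the title sets (1 with all arrays). The 5, 5, 8 and 9 came without V2 cKO replicate 5 (V2imm). In cKO 4 were called without V2 cKO replicate 4 (V2imm), 0 without DP cKO replicate 3 and 1 without DP cKO replicate 4 or V2 cKO replicate 4 (immV2). In the average 2 were called without DP cKO replicate 3 or V2 WT replicate 3 (immV2). The cause was not tested. The labels do not say that a replicate number marks a shared animal or day. Deviations of same-numbered arrays from their group means correlated at 0.18, -0.50, -0.35 and -0.22 in 4 pairs, and groups this small cannot settle whether the numbers pair the samples. They were not used as pairs. With the number as a replicate block 3 members were called in WT, 2 in cKO and 0 between the genotypes in V2 or DP. With the replicate block within title set and population 0 members were called between the genotypes in V2, in DP or in the interaction, and 34, 8 and 4 of all genes, against 0, 5 and 0 without it. REML array weights did not converge, and gene-by-gene weights were used.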
